A study of Mus musculus with 21 samples.

Results

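Transcripts of the insulin-like growth factor (IGF) system were followed in mouse hindlimb muscle that lacked 3 FoxO transcription factors, with and without diabetes. The group described consists of 8 genes out of 46071 in the count table: the ligands Igf1 and Igf2, the IGF2 receptor gene Igf2r, and the binding protein genes Igfbp3, Igfbp4, Igfbp5, Igfbp6 and Igfbp7. They were chosen by name, with earlier results of these data known, and found by their Ensembl mouse gene identifiers. All 8 were found, and all 8 passed the filter on low counts that left 12658 genes for testing. The smallest count of any of them in a library was 46, for Igfbp3.

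The 21 RNA-seq libraries form 4 groups: 6 from triple knockout muscle of mice given streptozotocin (STZ TKO), 6 from triple knockout muscle without it (TKO), 5 from floxed muscle with streptozotocin (STZ floxed) and 4 from floxed muscle without it (floxed). The TKO mice carry floxed Foxo1, Foxo3 and Foxo4 with a Cre recombinase under the ACTA1 promoter, which is active in skeletal muscle fibres, so other cells of the muscle keep these genes. The floxed controls were littermates, all on a mixed background of C57Blk6, C57Blk6J and 129 strains, and the ages of the animals are not stated. Streptozotocin (STZ), which destroys the insulin-producing beta cells, was injected once at 150 mg/kg after a fast, females received a further 75 mg/kg on day 3, and mice were kept when random glucose stayed above 300 mg/dL; the other mice were given citrate buffer per the design text, while their labels list no drug. Powdered quadriceps and gastrocnemius were mixed for each extraction.

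IGF1 and IGF2 are secreted growth factors that signal through the IGF1 receptor, which in muscle drives fibre growth by the kinase AKT. AKT in turn keeps FoxO proteins out of the nucleus, so FoxO is active where insulin and IGF signals are low. The binding proteins hold the ligands outside the cell: they prolong their life, carry them in blood or keep them from the receptor, and several also act on cells without a ligand. IGF2R, also known as the cation-independent mannose 6-phosphate receptor, takes up IGF2 for degradation and sorts enzymes to lysosomes.

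Total counts per library ranged from 2951290 to 7687823. Foxo4 averaged 7.43 ± 2.70 CPM (counts scaled to a common library size; SD, n = 6) in STZ TKO and 6.24 ± 1.52 (n = 6) in TKO muscle, against 190.2 ± 7.72 (n = 5) in STZ floxed and 159.6 ± 29.5 (n = 4) in floxed muscle. Foxo1 was also lower in every knockout library than in every floxed one, whereas Foxo3 was not lower (136 and 96.1 CPM in STZ TKO and TKO, against 90.3 and 73.1 in STZ floxed and floxed). The deposited gene counts do not show which part of Foxo3 was counted, so its level does not check the deletion. Skeletal muscle markers were abundant throughout, with 10 of 10 tested and a summed level of 55616 to 223064 CPM. Libraries are named by their title numbers. Libraries 4, 15, 16 and 20, all knockouts, had the highest summed macrophage marker levels, 1092 to 2424 CPM. Their mean levels were 1.05 to 2.09 (mean log2 CPM of the list, relative to each gene's mean), and library 6, at 1.06, was not in this set. Libraries 17 and 18 had the lowest tendon marker levels by this mean, whereas by summed level library 21 (204 CPM) was below library 17 (219 CPM). Libraries 4, 15, 16 and 20, and libraries 17 and 18, were left out as sets in alternative fits.

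The coding strand just upstream of the RefSeq transcript start is shown for Igfbp5 and Igfbp3. Of the members, Igfbp5 alone passed the test of the knockout under STZ, and Igfbp3 alone that of the mean STZ effect, both described below. The Igfbp5 window lies on the minus strand of GRCm38.p6 at chr1:72874866-72875115, and the Igfbp3 window on the minus strand at chr11:7213924-7214173. The Igfbp5 gene as annotated in GENCODE, whose coordinates are given below, reaches position 72874884. The end of the Igfbp5 window nearest the RefSeq start therefore lies within that annotated gene. Each is written 5′ to 3′ up to the base before the RefSeq start, with a TATA-like stretch in capitals that begins 51 bases upstream of the start in Igfbp5 and 30 bases upstream in Igfbp3.
Igfbp5: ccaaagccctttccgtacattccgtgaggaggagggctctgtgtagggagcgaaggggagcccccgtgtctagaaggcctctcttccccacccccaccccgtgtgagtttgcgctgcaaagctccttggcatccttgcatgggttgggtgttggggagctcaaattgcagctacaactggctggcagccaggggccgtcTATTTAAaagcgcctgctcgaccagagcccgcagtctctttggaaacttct
Igfbp3: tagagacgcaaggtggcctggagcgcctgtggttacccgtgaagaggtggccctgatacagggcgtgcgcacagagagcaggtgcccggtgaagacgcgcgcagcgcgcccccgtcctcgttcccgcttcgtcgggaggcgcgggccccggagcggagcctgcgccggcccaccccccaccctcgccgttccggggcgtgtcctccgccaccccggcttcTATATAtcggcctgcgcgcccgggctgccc
The 250 bases upstream were searched on both strands in 32851 RefSeq promoters, among them 11 promoters of the 8 members (Igf2 has 4). The TATA-like letters TATTTAA stood in 4.18% of all promoters and in that of Igfbp5, and TATATA in 5.25% and in that of Igfbp3. The forkhead motif GTAAACA stood in 3.17% of all promoters and CAAAACA in 5.56%, and neither was in the window of any of the 11 member promoters. These are matches of letters only, and binding was not measured.

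Igfbp5 was by far the most abundant member per length. On the scale of CPM per kilobase of exon, over all 21 libraries, Igfbp5 averaged 239 ± 138 (SD), followed by Igfbp6 at 47.2 ± 23.0. Igfbp7 (25.5 ± 13.8), Igf2r (22.2 ± 5.60) and Igfbp4 (20.2 ± 5.69) did not differ from their neighbours in this order beyond their spread. Igf2 (10.6 ± 14.8) and Igfbp3 (9.66 ± 9.29) were likewise within each other's spread, and Igf1 was lowest at 3.40 ± 1.43. The remaining binding protein genes of the family were close to absent: Igfbp1 and Igfbp2 had 0 to 9 and 0 to 10 counts per library, and neither passed the filter. Igfbp1, a liver transcript that insulin represses, therefore could not be compared here.

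**Figure D1:**
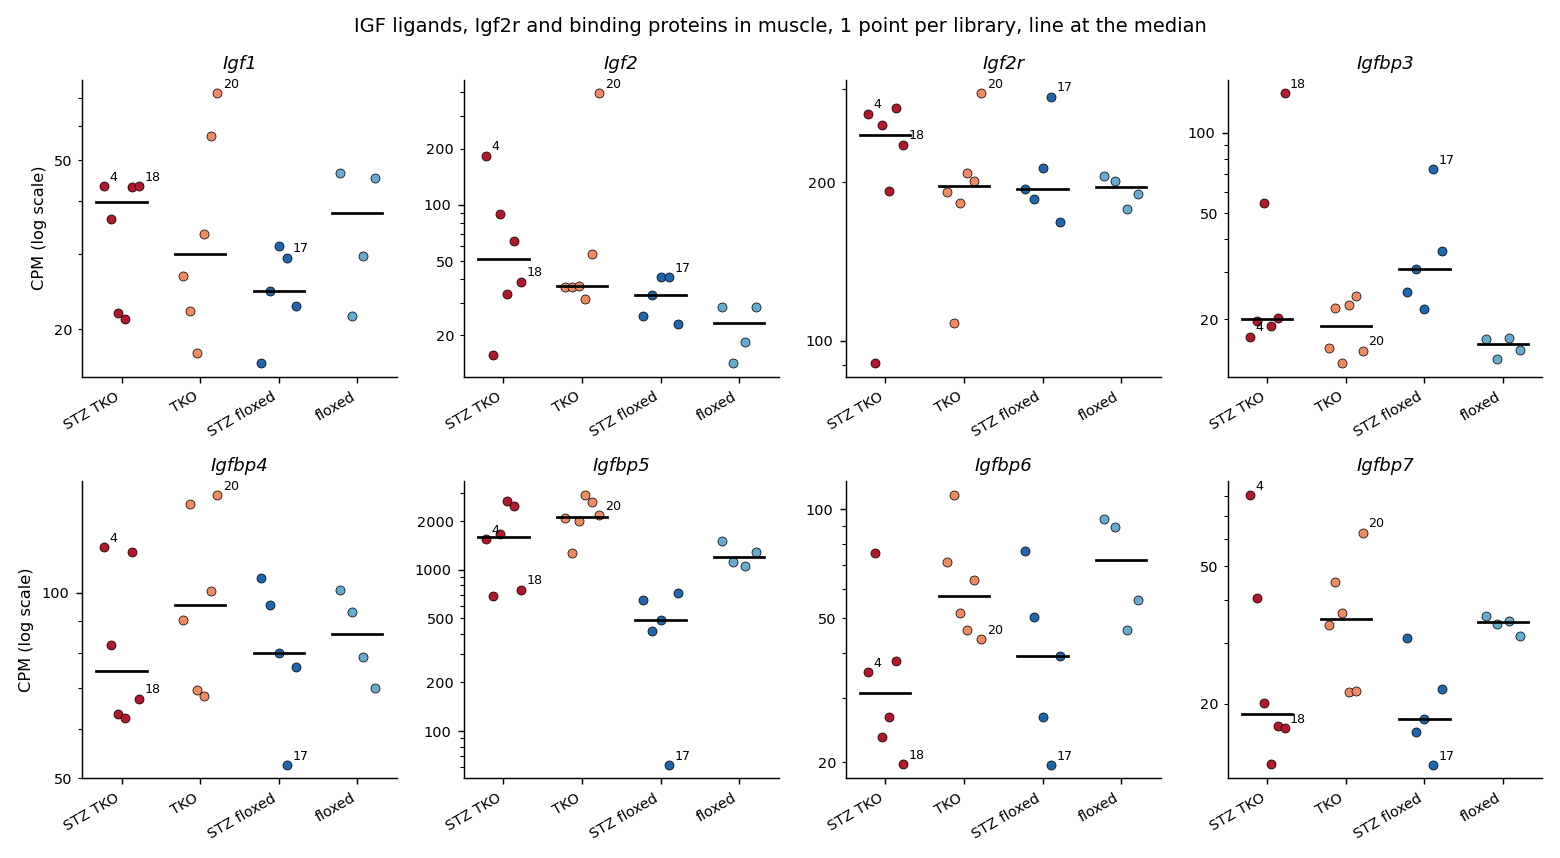
CPM of each of the 8 members on a log scale, with 1 point per library and a line at the group median, for STZ TKO (n = 6), TKO (n = 6), STZ floxed (n = 5) and floxed muscle (n = 4). Igfbp5 spans 61.6 to 2909 CPM and is low in the STZ floxed group, Igf2 has single TKO and STZ TKO libraries far above the rest, and Igfbp3 has high libraries in both STZ groups; numbers mark libraries 4, 17, 18 and 20.

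Log2 fold changes below are from edgeR's quasi-likelihood test with Benjamini-Hochberg adjustment over all 12658 genes. They are called at an adjusted p under 0.05. The standard error (SE) given with them was worked back from the estimate and its test statistic. Intervals were set from this SE by a normal approximation, which ignores the limited degrees of freedom of the fit. The intervals are therefore narrower than the test implies, and calls rest on the adjusted p alone. A knockout effect is TKO over floxed and an STZ effect is STZ over no STZ; a mean effect averages the knockout effect over both STZ conditions, or the STZ effect over both genotypes. The labels do not say that the libraries came from separate animals, so p-values measure the spread between libraries. Comparisons that use the same group share its libraries and are not independent.

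Between STZ TKO and STZ floxed muscle, 1 of the 8 members passed the test, as a higher one, while 4.89% of all genes tested passed in either direction and 2.47% as higher. Averaged over both STZ conditions, 2 of 8 passed, both higher, against 9.8% of all genes in either direction and 5.57% as higher. Without STZ, 0 of 8 passed the test of TKO against floxed in edgeR and in DESeq2, with 1 at an unadjusted p under 0.05 (11.5% of all genes); 0.514% of all genes passed. Over both genotypes, STZ changed 1 of 8 members, again higher, against 4.54% of all genes and 2.16% as higher. Within floxed muscle (1.35% of all genes passed) and within TKO muscle (0.142%), 0 of 8 members passed the STZ test in edgeR and in DESeq2, with 2 members at an unadjusted p under 0.05 in each, as were 14.4% of all genes within floxed and 11.3% within TKO muscle. The difference between both STZ effects passed for 0 of 8 members in either tool, with 0 at an unadjusted p under 0.05 (3.89% of all genes), and for 0.0079% of all genes. The median log2 fold change of the members was 0.38 for the knockout under STZ, against 0.03 over all genes tested, and -0.25 for the mean STZ effect, against 0.02.

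**Figure D2:**
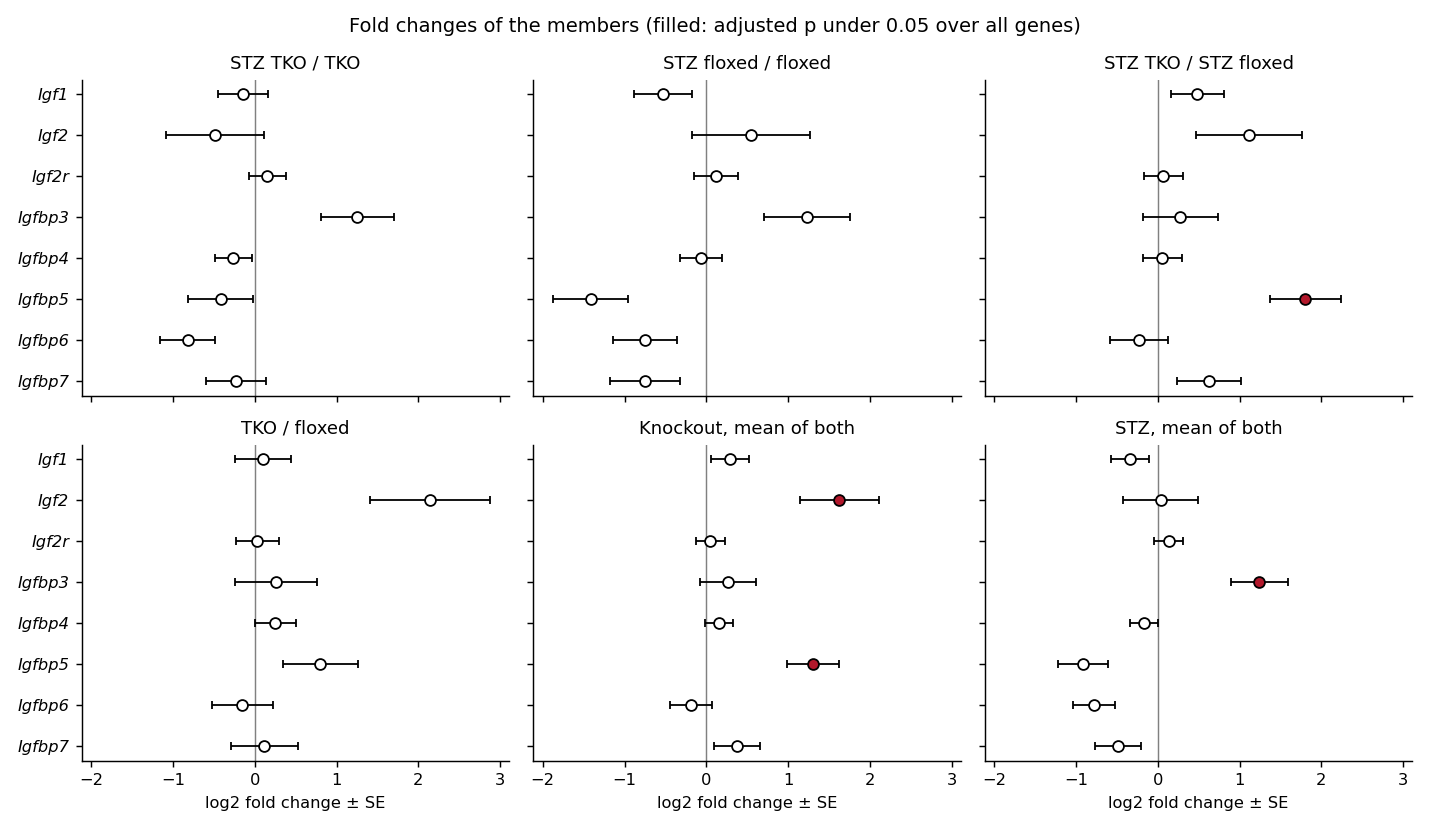
Log2 fold change of the 8 members with its SE in the 4 pairwise comparisons and the 2 mean effects, where a filled point marks an adjusted p under 0.05. Filled points are Igfbp5 for the knockout under STZ (1.80) and for the mean knockout effect (1.30), Igf2 for the mean knockout effect (1.63) and Igfbp3 for the mean STZ effect (1.24).

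Among the ligands, Igf2 was higher in knockout muscle when both STZ conditions were averaged. Igf2, a growth factor that is abundant in the fetus and is made again by differentiating myoblasts, lies on chromosome 7 (142650766 to 142666816, GRCm38, minus strand). Its level ran from 15.8 to 184 CPM in STZ TKO libraries, with a median of 51.5, and from 31.2 to 395 CPM in TKO libraries, with a median of 36.6. It was 23.1, 25.5, 33.0, 41.1 and 41.2 CPM in STZ floxed libraries and 14.2, 18.4, 28.3 and 28.3 CPM in floxed libraries. Library 20 (395 CPM) stood far above the other TKO libraries, which reached 54.8 CPM, and libraries 4 (184 CPM) and 11 (88.7 CPM) were the highest under STZ. The TKO and floxed groups did not overlap, which was so for 2.35% of all genes tested in that direction; the STZ TKO and STZ floxed groups overlapped.

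The mean knockout effect on Igf2 was a log2 fold change of 1.63 ± 0.49 (SE; a 3.09-fold rise, adjusted p = 0.0363 in edgeR's quasi-likelihood test). Taken separately, the difference was 2.14 ± 0.73 without STZ (adjusted p = 0.192) and 1.11 ± 0.65 under STZ (0.381), and neither passed in edgeR. Within runs of consecutive library codes, TKO was above floxed in 4 of 4 runs without STZ (0.36 to 3.79 on the log2 scale), and STZ TKO above STZ floxed in 2 of 4 runs (-1.05 to 2.83). The mean effect was 0.97 without library 20 (adjusted p = 0.0627 in edgeR) and 0.56 without libraries 4, 15, 16 and 20 (0.251). Libraries 20 and 4 had the most Igf2, so leaving them out lowers the knockout estimate in any case. The call was also lost with the code run as a block (1.40, adjusted p = 0.0542) and with no filter on low counts (1.61, 0.111). Leaving out any 1 of 10 libraries ended it as well: 4 and 15 of STZ TKO, 20 of TKO, 3, 7 and 21 of STZ floxed, and 1, 5, 9 and 19 of floxed. An antisense gene, Igf2os, shares 98 exon bases with Igf2, and whether the counting used the strand is not given.

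The 2 libraries with most Igf2 also had the highest levels of regeneration markers. This list holds Pax7, Myf5, Myod1, Myog, Myh3, Myh8 and Mymk, which mark satellite cells and newly forming fibres, and 7 of 7 were tested. Its summed level ran from 48.5 to 577 CPM in STZ TKO, 64.8 to 1584 in TKO, 41.3 to 84.3 in STZ floxed and 34.3 to 49.8 in floxed libraries, and 4 of 7 rose in the mean knockout effect; Mymk was at 0 in all STZ floxed libraries. Library 20 had the highest mean level of the list (3.38 on the log2 scale, relative to each gene's mean) and library 4 the next (2.15). Of 14 macrophage markers 13 were tested and 12 rose in the mean knockout effect, and they were at 303 to 2424 CPM summed in STZ TKO, 324 to 1892 in TKO, 212 to 317 in STZ floxed and 185 to 254 in floxed libraries. Denervation markers, a list that includes Ncam1, rose in 4 of 8 cases in the mean knockout effect, with a summed level of 81.0 to 269 CPM in STZ TKO, 74.4 to 581 in TKO, 91.3 to 291 in STZ floxed and 58.1 to 92.2 in floxed libraries. Their mean level was again highest in libraries 20 (2.45) and 4 (1.34). The part of any of these lists in the Igf2 difference was not tested; in bulk muscle, fewer or more cells of a type and less or more RNA per cell cannot be told apart.

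**Figure D3:**
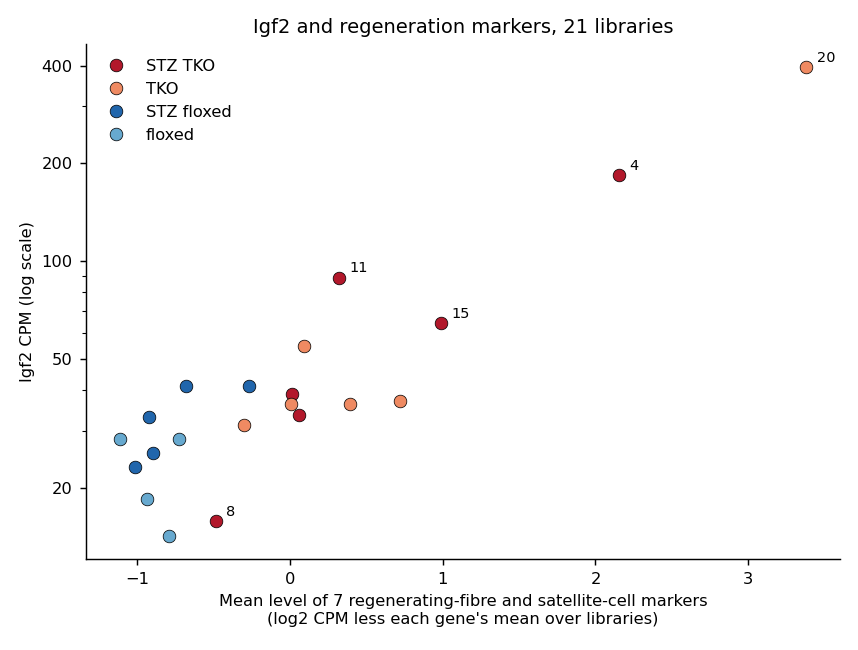
Igf2 CPM (log scale) against the mean level of 7 markers of regenerating fibres and satellite cells (log2 CPM less each gene's mean over the libraries), with 1 point per library coloured by group. TKO library 20 (395 CPM) and STZ TKO library 4 (184 CPM) lie at the upper right, with marker levels of 3.38 and 2.15.

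The genes whose log2 CPM followed Igf2 most closely over the 21 libraries were Ncam1 (Pearson's r = 0.92, Spearman's rho = 0.89), Plagl1 (r = 0.90, rho = 0.63) and Myh3 (r = 0.89, rho = 0.86). Ncam1 is a cell adhesion molecule of myoblasts and denervated fibres, Plagl1 a zinc finger transcription factor from an imprinted locus, and Myh3 the embryonic myosin heavy chain. Without the 2 libraries farthest from the median of Igf2, r was 0.78, 0.62 and 0.72 for these genes in that order. H19, the imprinted noncoding transcript beside Igf2, was at 2545 CPM in library 20, 1593 in library 11 and 1407 in library 4. In STZ floxed muscle, library 17 reached 1236 CPM of H19. Its mean knockout effect was 0.88 ± 0.46 and did not pass in edgeR's quasi-likelihood test (adjusted p = 0.266).

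Igf1, the main growth factor of adult muscle, did not pass the test in any comparison. It lies on chromosome 10 (87858265 to 87937042, plus strand) and averaged 34.9 ± 10.7 CPM (SD, n = 6) in STZ TKO, 38.1 ± 21.5 (n = 6) in TKO, 25.0 ± 5.86 (n = 5) in STZ floxed and 35.8 ± 12.3 (n = 4) in floxed muscle. The STZ floxed libraries held 16.6, 22.7, 24.6, 29.4 and 31.5 CPM, and the floxed libraries 21.4, 29.8, 45.4 and 46.6 CPM, so the groups overlapped. The log2 fold change between STZ TKO and STZ floxed was 0.48 ± 0.32 (95% interval -0.15 to 1.11; adjusted p = 0.457 in edgeR), with STZ TKO higher in 4 of 4 code runs. The STZ effect in floxed muscle was -0.53 ± 0.35 (-1.22 to 0.16; adjusted p = 0.513). Libraries 16 and 20, with 56.9 and 71.8 CPM, were the highest of the TKO group. The genes most like Igf1 over the 21 libraries were Kdelr3 (r = 0.87), Sec24d (0.86) and Colec12 (0.84); Kdelr3 and Sec24d serve transport between endoplasmic reticulum and Golgi, and Colec12 is a scavenger receptor of the collectin family.

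Igf2r showed no difference past the threshold in any comparison. The gene lies on chromosome 17 (12682406 to 12769664, minus strand) and averaged 220.3 ± 70.3 CPM (SD, n = 6) in STZ TKO, 198 ± 59.7 (n = 6) in TKO, 210.2 ± 47.8 (n = 5) in STZ floxed and 194 ± 12.1 (n = 4) in floxed muscle. Its mean knockout effect was 0.05 ± 0.18 (95% interval -0.30 to 0.40) and its mean STZ effect 0.14 ± 0.18 (-0.21 to 0.48) on the log2 scale. The lowest library was library 8 of STZ TKO, at 90.7 CPM, and the highest library 20 of TKO, at 295 CPM. Among the genes most like it were Baz2a (r = 0.94) and Dip2b (0.92). Among the members, Igf2r followed Igf2 most closely over the libraries (r = 0.61, and 0.72 after subtraction of the group means). It ran most strongly opposite to Igfbp6 (r = -0.59, and -0.65 after that subtraction). Both are descriptions of 21 libraries that share 1 normalization.

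Igfbp5 was the binding protein whose genotype difference passed the test: it was 3.49-fold higher in STZ TKO than in STZ floxed muscle. IGFBP5 is the main binding protein made by muscle cells, is induced as myoblasts differentiate, and binds extracellular matrix, where it can either hold back or prolong IGF signals. The gene lies on chromosome 1 (72857932 to 72874884, minus strand). Igfbp5 stood at 690.3, 753, 1547, 1656, 2477 and 2668 CPM in STZ TKO libraries, against 61.6, 415, 488, 651 and 721 CPM in STZ floxed libraries. In TKO libraries it ran from 1276 to 2909 CPM with a median of 2129.8, against 1062, 1116, 1292 and 1517 CPM in floxed libraries. The lowest STZ TKO library lay just below the highest STZ floxed library, so these groups overlapped by that single value, and library 17 of STZ floxed lay far below all others.

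The log2 fold change of Igfbp5 between STZ TKO and STZ floxed was 1.80 ± 0.44 (SE; adjusted p = 0.0176 in edgeR's quasi-likelihood test), and STZ TKO was the higher in 4 of 4 code runs (0.73 to 3.60). The largest of these within-run differences came from libraries 18 and 17. Without STZ, the difference was 0.80 ± 0.45 (95% interval -0.09 to 1.69; adjusted p = 0.555), with TKO the higher in 4 of 4 runs (0.19 to 0.91). The mean knockout effect was 1.30 ± 0.32, a 2.47-fold rise (adjusted p = 0.0104 in edgeR). The call under STZ was lost with no filter on low counts (adjusted p = 0.063), with only the groups of the contrast in the fit (0.0962) and without libraries 4, 15, 16 and 20 (0.0897), at log2 fold changes of 1.79, 1.80 and 1.62; the mean effect was lost without these 4 libraries (1.18, adjusted p = 0.0763). Leaving out any single library kept both calls, at adjusted p-values of 0.00974 to 0.0481 under STZ and 0.00245 to 0.0282 for the mean effect.

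In floxed muscle Igfbp5 values were lower with STZ, a difference that did not pass the test over all genes. Every STZ floxed library was below every floxed library, as was so for 5.17% of all genes tested (8.79% did not overlap in either direction). The log2 fold change was -1.41 ± 0.46 (adjusted p = 0.134 in edgeR), and STZ floxed was the lower in 3 of 3 code runs (-1.42 to -0.84). Within knockouts the STZ effect was -0.41 ± 0.40 (95% interval -1.19 to 0.37; adjusted p = 0.694), and the STZ TKO and TKO groups overlapped. The difference between both STZ effects was 1.00 ± 0.61 (95% interval -0.19 to 2.19; unadjusted p = 0.114 and adjusted p = 1.00 in edgeR), so the data do not separate a smaller STZ effect in knockouts from an equal one. The mean STZ effect was -0.91 ± 0.30 (adjusted p = 0.0817 in edgeR), and it passed in DESeq2 (-0.91, adjusted p = 0.0324) and with the code run as a block (-1.02, 0.0377).

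**Figure D4:**
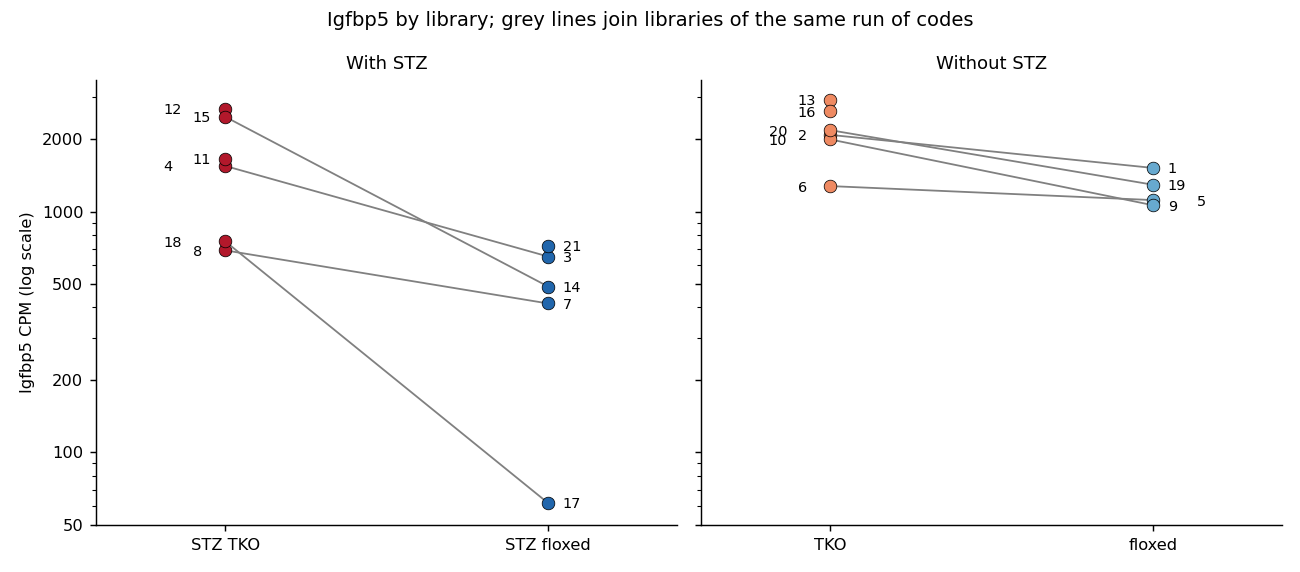
Igfbp5 CPM (log scale) of every library, with its title number, in STZ TKO against STZ floxed (left) and TKO against floxed (right); grey lines join libraries of the same run of consecutive library codes. All 4 lines with STZ and all 4 without STZ fall towards the floxed group, and library 17 (61.6 CPM) is the lowest.

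Values of other cell types' markers in the same comparisons were as follows. Of 13 fibroblast markers listed and tested, 1 rose between STZ TKO and STZ floxed and 2 fell with STZ in floxed muscle; the summed level was 1501 to 7237 CPM in STZ TKO, 3956 to 10453 in TKO, 1226 to 3625 in STZ floxed and 4448 to 9947 in floxed libraries, with no marker at 0. Skeletal muscle fibre markers passed in 0 of 10 cases in each of these contrasts in edgeR. Their estimates were negative for 8 of 10 with STZ in floxed muscle and for 5 of 10 between STZ TKO and STZ floxed. Library 17, lowest for Igfbp5, also had the lowest mean level of the fibre markers (-1.60 on the log2 scale, relative to each gene's mean). Between STZ TKO and STZ floxed, 6 of 13 tested macrophage markers also rose. With STZ in floxed muscle, 2 of 9 tendon markers fell, and all 9 tendon and all 13 fibroblast estimates were negative. Of the 8 denervation marker estimates there, 7 were positive. Estimates between STZ TKO and STZ floxed were positive for 11 of 13 fibroblast, 8 of 9 tendon, 7 of 7 regeneration and 6 of 8 denervation markers. They were negative for 11 of 12 endothelial markers, and 0 regeneration or denervation markers passed in edgeR. The part of any of these in the Igfbp5 differences was not tested. The genes most like Igfbp5 were Mdga1 (r = 0.94, rho = 0.84), Trim7 (0.92, rho = 0.89) and Sypl2 (0.92, rho = 0.76), with r of 0.87, 0.87 and 0.79 without the 2 libraries farthest from its median. Trim7 is a ubiquitin ligase that binds glycogenin, and Sypl2 a membrane protein of the muscle triad.

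Igfbp3 was the member that rose with STZ: averaged over both genotypes it was 2.37-fold higher. IGFBP3 carries most IGF in the blood, in a complex with the acid-labile subunit, and is also made by many cells. The gene lies on chromosome 11 (7206086 to 7213923, minus strand). Igfbp3 was at 17.2, 19.0, 19.7, 20.3, 54.3 and 140.5 CPM in STZ TKO libraries, against 13.7 to 24.6 CPM in TKO libraries with a median of 18.8. It was at 21.8, 25.4, 30.8, 35.9 and 73.1 CPM in STZ floxed libraries, against 14.2, 15.4, 16.8 and 17.1 CPM in floxed libraries. In knockouts the high values came from libraries 11 and 18, the other 4 lying within the TKO range, while in floxed muscle every STZ library was above every library without STZ (3.62% of all genes tested).

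The mean STZ effect on Igfbp3 was 1.24 ± 0.34 (SE; adjusted p = 0.0422 in edgeR's quasi-likelihood test). It was 1.25 ± 0.44 in knockouts (adjusted p = 0.316) and 1.23 ± 0.53 in floxed muscle (0.275), so neither passed alone in edgeR. STZ floxed was higher in 3 of 3 code runs (0.58 to 1.20) and STZ TKO in 3 of 5 (-0.16 to 2.50). The mean effect was 0.65 without libraries 17 and 18 (adjusted p = 0.0922 in edgeR) and 1.23 with no filter on low counts (0.122). Libraries 17 (73.1 CPM) and 18 (140.5 CPM) had the most Igfbp3, so leaving them out lowers the STZ estimate in any case. Leaving out any 1 of 12 libraries ended the call (adjusted p over all 21 ran from 0.021 to 0.0936): 11 of STZ TKO, 2, 6, 10 and 20 of TKO, 7, 17 and 21 of STZ floxed, and 1, 5, 9 and 19 of floxed.

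By mean level, tendon markers were lowest in the libraries with most Igfbp3. In the mean STZ effect 4 of 9 listed and tested tendon markers fell, and the summed level was 194 to 1308 CPM in STZ TKO, 551 to 1555 in TKO, 204 to 851 in STZ floxed and 693 to 1276 in floxed libraries, with no marker at 0. The mean levels on the log2 scale, relative to each gene's mean, were -2.48 in library 17, -2.42 in library 18 and -1.62 in library 11. In the same order, fibroblast markers were at -1.84, -0.92 and -1.30, and adipocyte markers at -1.69, -1.93 and -0.74. Skeletal muscle fibre markers were at -1.60, -0.65 and 0.14, and denervation markers at 0.47, 0.81 and 0.45. The part of any of these lists in the Igfbp3 difference was not tested. The likest genes were Eif3a (r = 0.89, rho = 0.51), Pik3r1 (0.88, rho = 0.62) and Ubxn4 (0.87, rho = 0.48); without the 2 libraries farthest from the median, r was 0.61, 0.79 and 0.58. Eif3a is a translation initiation factor and Pik3r1 the regulatory subunit of the kinase that insulin and IGF receptors activate.

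Igfbp6, a binding protein that prefers IGF2 over IGF1, had lower mean values with STZ in both genotypes, but the differences did not pass the test. The gene lies on chromosome 15 (102144362 to 102149511, plus strand). It ran from 19.7 to 75.5 CPM in STZ TKO with a median of 31.0, against 43.6 to 109 in TKO with a median of 57.6. In STZ floxed libraries it was 19.6, 26.7, 39.3, 50.2 and 76.5 CPM, against 46.3, 56.0, 89.1 and 93.9 CPM in floxed libraries. Both pairs of groups overlapped; library 8 was the high one in STZ TKO. The log2 STZ effect was -0.82 ± 0.34 in knockouts (adjusted p = 0.379 in edgeR) and -0.75 ± 0.39 in floxed muscle (0.383), with STZ the lower in 5 of 5 and 3 of 3 code runs. The mean STZ effect of -0.79 ± 0.26 missed the threshold in edgeR (adjusted p = 0.0777) and passed in DESeq2 (0.0433), with the code run as a block (0.00922), without library 8 (0.0177) and without library 3 (0.0249).

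Fibroblast and tendon markers moved in the same direction as Igfbp6. In the mean STZ effect 3 of 13 fibroblast markers fell and 0 rose, and 4 of 9 tendon markers fell and 0 rose. All 13 fibroblast and all 9 tendon estimates were negative. Of all genes tested, 4.54% passed in this contrast in either direction. Gsn, which stands in that fibroblast list, was among the likest genes of Igfbp6 (r = 0.90), with Pet100 (0.91) and Timm50 (0.90), both of which serve mitochondria. The part of fibroblasts or tendon cells in the Igfbp6 values was not tested.

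Igfbp4 and Igfbp7 did not pass in any comparison. IGFBP4 mainly restrains IGF action until the protease PAPP-A cleaves it; its gene, on chromosome 11 (99041244 to 99054392, plus strand), averaged 85.1 ± 26.1 CPM (SD, n = 6) in STZ TKO, 102 ± 33.3 (n = 6) in TKO, 81.9 ± 20.4 (n = 5) in STZ floxed and 85.7 ± 13.9 (n = 4) in floxed muscle. Its estimates ran from -0.26 ± 0.22 for STZ in knockouts to 0.25 ± 0.25 for the knockout without STZ, on the log2 scale. Gnai2 (r = 0.92), Pla2g15 (0.90) and Pltp (0.89) were its likest genes. IGFBP7 is a low-affinity relative that is abundant in vessel walls; its gene lies on chromosome 5 (77349240 to 77408041, minus strand) and shares 85 exon bases with Polr2b on the other strand.

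Igfbp7 was at 13.3, 17.0, 17.2, 20.1, 40.3 and 80.6 CPM in STZ TKO libraries and at 21.7 to 62.7 CPM in TKO libraries, with a median of 35.3. It was at 13.3, 16.5, 18.1, 22.1 and 30.9 CPM in STZ floxed libraries and at 31.3, 34.0, 34.8 and 35.9 CPM in floxed libraries. The STZ floxed and floxed groups did not overlap, as was so for 5.17% of all genes in that direction, and the log2 fold change of -0.75 ± 0.43 did not pass (adjusted p = 0.437 in edgeR). Between STZ TKO and STZ floxed it was 0.63 ± 0.39 (adjusted p = 0.417), and 0.07 without library 4, the one at 80.6 CPM. Of 12 endothelial markers tested, 0 passed between STZ floxed and floxed in edgeR, and 9 estimates were positive. Their summed level was 605 to 686 CPM in STZ floxed and 512 to 668 in floxed libraries, with none at 0. Of 13 fibroblast markers tested, 2 fell in that comparison in edgeR and all 13 estimates were negative. The part of either list in the Igfbp7 values was not tested. Rcn3, Tubb2a and Serpinh1 were its likest genes (r = 0.86, 0.86 and 0.84); Rcn3 and Serpinh1 serve collagen production in the endoplasmic reticulum.

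The make-up of the binding protein transcripts is given as a description, with no test. Of the summed CPM per kilobase of the 5 binding protein members, Igfbp5 made up 70.7 ± 16.1% (SD, n = 6) in STZ TKO, 74.5 ± 10.5% (n = 6) in TKO, 43.7 ± 18.0% (n = 5) in STZ floxed and 64.1 ± 4.49% (n = 4) in floxed libraries. The Igfbp5 share ranged from 47.7 to 88.9%, 54.9 to 85.5%, 13.8 to 59.4% and 58.1 to 68.9% in these groups, so all of them overlapped, and library 17 was the lowest of STZ floxed, whose median was 46.1%. Igfbp6 came next, with 10.4 ± 8.80%, 12.7 ± 6.67%, 23.1 ± 5.94% and 19.5 ± 4.57% in the same groups. In library 17 Igfbp3, at 31.5%, exceeded Igfbp5, at 13.8%, and in library 18 Igfbp3 made up 20.7%. The shares are bound to each other, so a low Igfbp5 raises the others without a change in their own levels.

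**Figure D5:**
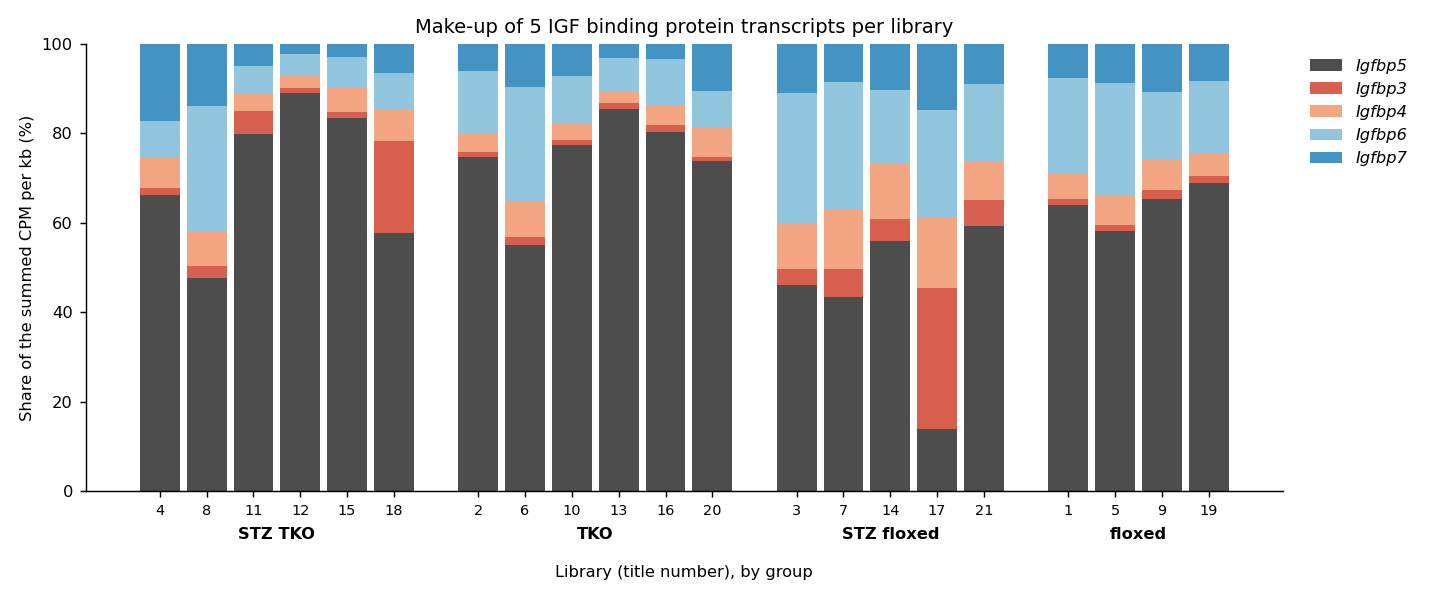
Share of each of 5 binding protein transcripts in their summed CPM per kilobase, with 1 bar per library, ordered STZ TKO, TKO, STZ floxed and floxed. Igfbp5 takes 13.8 to 59.4% of each STZ floxed bar and 58.1 to 68.9% of each floxed bar; the Igfbp3 share is largest in libraries 17 (31.5%) and 18 (20.7%).

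The rest of the pathway was read from 26 other IGF system genes, of which 20 were tested. The genes Igfbp1, Igfbp2, Igfbpl1, Pappa2, Igf2bp1 and Igf2bp3 did not pass the filter. In edgeR, 1 rose and 2 fell between STZ TKO and STZ floxed, 2 rose and 4 fell in the mean knockout effect, 0 rose and 1 fell with STZ in floxed muscle, and 1 rose and 1 fell in the mean STZ effect. Of all genes tested, 4.89%, 9.8%, 1.35% and 4.54% passed in these contrasts, in that order and in either direction. For the knockout without STZ 0 of 20 passed (0.514% of all genes), with 7 at an unadjusted p under 0.05 (11.5% of all genes). For STZ in knockouts 0 of 20 passed (0.142% of all genes), with 3 at an unadjusted p under 0.05 (11.3% of all genes).

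Igf1r and Insr passed as lower in the mean knockout effect, and Igf1r also in the knockout under STZ; Ghr, the growth hormone receptor gene, did not pass (-0.35 ± 0.20 for the mean effect, adjusted p = 0.313 in edgeR). Igf1r, which encodes the receptor for both ligands, was at 5.46, 11.6, 14.1, 15.6, 16.0 and 23.1 CPM in STZ TKO libraries, against 24.2, 26.4, 30.1, 34.6 and 43.1 CPM in STZ floxed libraries. These groups did not overlap (as for 2.24% of all genes tested in that direction), and the log2 fold change was -1.13 ± 0.28 (SE; adjusted p = 0.0199 in edgeR's quasi-likelihood test), with STZ TKO the lower in 4 of 4 code runs. Without STZ the Igf1r difference was -0.67 ± 0.31 (adjusted p = 0.387 in edgeR), and the TKO and floxed groups overlapped. TKO was the higher in 1 of 4 code runs there (-2.23 to 0.13 on the log2 scale). The mean knockout effect on Igf1r was -0.90 ± 0.21 (adjusted p = 0.00707 in edgeR). Alternative fits of single genes are reported for the 8 members only, so the calls of Igf1r and the other genes of this list were not checked in that way. The insulin receptor gene Insr fell by 0.77 on the log2 scale (SE 0.21; adjusted p = 0.0205) and Stat5b, which carries the growth hormone signal, fell by 0.65 (SE 0.16; 0.00965) in the mean knockout effect in edgeR, while its neighbour Stat5a rose by 0.46 (SE 0.15; 0.0477). Stat5a and Stat5b are closely related genes, and how the authors' counting treated reads that fit both is not given. Whether such reads affected their opposite changes was not tested.

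Of 4 adaptor genes, 1 rose, 1 fell and 2 (Irs2 and Grb10) did not pass in the mean knockout effect. Irs1, which couples both receptors to downstream kinases, had a log2 fold change of -1.24 ± 0.23 (adjusted p = 0.00147 in edgeR), and Grb14, which binds active insulin receptors and blocks them, one of 1.64 ± 0.24 (0.000128). Grb14 averaged 6.77 ± 3.28 CPM (SD, n = 5) in STZ floxed and 21.0 ± 1.77 (n = 4) in floxed muscle, and fell by 1.62 on the log2 scale with STZ there (SE 0.36; adjusted p = 0.0269 in edgeR), as the one gene of this list that did. Stc2, a stanniocalcin that inhibits PAPP-A, rose in the mean STZ effect by 1.30 (SE 0.30; adjusted p = 0.0176 in edgeR). It averaged 14.2 ± 10.2 CPM (SD, n = 6) in STZ TKO and 7.41 ± 2.81 (n = 6) in TKO, and 12.9 ± 2.90 (n = 5) in STZ floxed and 3.97 ± 2.15 (n = 4) in floxed muscle.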

How the data were processed

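RNA-seq read counts per Ensembl mouse gene were deposited by the authors without normalization, 1 column for each of 21 libraries. Per the submitters' processing notes, STAR, featureCounts and GRCm38.p4 were used; the tool versions, annotation and strand setting of the counting are not stated in these sources, so reads of a gene and an antisense partner may not be separated. Per the labels' protocols, stranded libraries were made from total RNA and 48 were multiplexed.

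Symbols, exon lengths and gene coordinates came from GENCODE mouse release 21 (GRCm38); 45143 of 46071 identifiers had a symbol, and the rest held 0.0533% of the counts. Groups came from the genotype and drug labels. Counts were analysed in edgeR 4.0.16 (R 4.3.3): filterByExpr kept 12658 genes, libraries were scaled by TMM (factors 0.862 to 1.353), and robust quasi-likelihood fits with 1 mean per group gave 7 two-sided contrasts, each adjusted by Benjamini-Hochberg. The biological coefficient of variation was 0.325. CPM values use TMM-scaled library sizes, correlations and marker levels log2 CPM with a prior count of 2. The code was tested on simulated data. All 46 same-group library pairs differed beyond sampling noise, with a chi-square of at least 8.61 per degree of freedom. The library codes form 6 runs of consecutive numbers, which the labels do not call batches; within-run values compare libraries of the same run. Alternatives were RLE scaling, DESeq2 1.42.0, no filter, the run as a block, only the contrast's groups, and libraries left out.

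The members and gene lists were chosen with earlier results of these data known. The genes named are the 8 members, the other IGF system genes past the threshold or not kept by the filter, H19, the 3 genes most correlated with each member (1 of them is not reported here), and Foxo1, Foxo3 and Foxo4. Upstream sequences are from RefSeq, GRCm38.p6.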

Additional observations from a re-analysis of the deposited data

Results flagged for a closer look

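In 4 of 32 combinations of a member and a group, 1 library lay apart from the rest by Dixon's 95% criterion, which chance meets in about 1 in 20 groups. Igf2 was at 395 CPM in library 20 of TKO, the other 5 libraries of that group lying between 31.2 and 54.8 CPM. Igfbp3 was at 140.5 CPM in library 18 of STZ TKO and at 73.1 CPM in library 17 of STZ floxed. Igfbp6 was at 75.5 CPM in library 8 of STZ TKO.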

How the results depend on the processing

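For the knockout under STZ, 1 member passed, and 0 did with no filter on low counts, with only the groups of the contrast, or without libraries 4, 15, 16 and 20; leaving out each library gave 1 to 1. For the mean knockout effect 2 passed, 1 with no filter, 1 with the run as a block, 0 without those 4 libraries and 1 to 2 with a library left out. For the mean STZ effect 1 passed, 3 in DESeq2, 3 with the run as a block, 0 with no filter, 0 without libraries 17 and 18, and 0 to 2 with a library left out. The causes were not tested. In the other 4 contrasts 0 passed under every alternative.

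Of 48 member estimates outside the interaction, 24 were within 1 SE of 0, and 16 of these changed sign in some alternative. Of the other 24, 1 reversed: Igf1 in the mean knockout effect was 0.29, and -0.10 without libraries 4, 15, 16 and 20. Igfbp7 passed in the mean STZ effect without library 4 (-0.76).

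Over all genes, calls moved by more than 1.5 times in some settings. The other settings gave 5 to 111 for STZ in knockouts (main 18, library left out 7 to 63), 120 to 425 for STZ in floxed muscle (171, 31 to 333), 334 to 1068 for the knockout under STZ (619, 384 to 785), 40 to 351 without STZ (65, 33 to 105), 0 to 4 for the interaction (1, 0 to 2), 549 to 1796 for the mean knockout effect (1240, 929 to 1405) and 313 to 1100 for the mean STZ effect (575, 222 to 1029).

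No pairing by title number was possible because the title numbers of the libraries are unique and no number is shared between groups. The run of library codes, which is no replicate number, was fitted as a block instead: it ended the Igf2 call in the mean knockout effect (1.40, adjusted p = 0.0542 in edgeR), and Igfbp5 (-1.02, 0.0377) and Igfbp6 (-0.77, 0.00922) passed in the mean STZ effect. Depth limits the members with few reads: the lowest library held 46 counts of Igfbp3 and 51 each of Igf2 and Igfbp7.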
